A study of Rattus norvegicus with 6 samples.

Results

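A set of 40 genes of the NRF2 pathway and of the cell's antioxidant enzymes was examined in differentiated H9c2 cells with and without a knockdown of the long non-coding RNA Tug1. The genes were taken by symbol from a list drawn up with earlier results of these data known, and all 40 were found among the 40456 genes of the table. H9c2 is a line of wild-type rat cardiomyoblasts, the study's only cell line, and the labels call it a cardiomyocyte. Cells of both groups were held for 5 days in medium with 1% serum and 1 µM retinoic acid, and were then lipofected for 24 h with a locked nucleic acid gapmer at 25 nM. The 3 control libraries received a negative control gapmer, and the 3 knockdown libraries received a gapmer against Tug1. Gapmers are short antisense strands that recruit RNase H to the RNA they pair with. Each group was made with 1 gapmer sequence, so effects of a sequence and effects of its target cannot be told apart. The labels do not say whether replicates came from separate cultures, so p-values measure the spread between these libraries, which may be technical.

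The 2 gapmers, printed 5′ to 3′ from the labels' protocols because they are the difference between the groups, were as follows.
Tug1 gapmer: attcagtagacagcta
Negative control gapmer: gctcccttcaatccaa
Tug1 itself was at 54.7, 52.0 and 55.4 CPM (counts scaled to library size) in control replicates 1 to 3 and at 11.9, 11.2 and 12.5 CPM in knockdown replicates 1 to 3. The knockdown libraries held 22.0% of the control level (log2 fold change -2.19, SE 0.0786).

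NRF2, the product of Nfe2l2, is a transcription factor that is kept scarce by KEAP1, an adaptor that hands it to a ubiquitin ligase. Oxidants and electrophiles modify KEAP1, NRF2 then accumulates, pairs with a small MAF protein and binds antioxidant response elements, and BACH1 competes for the same elements. Its classic targets make and recycle glutathione, reduce quinones, break down heme, reduce thioredoxin and supply NADPH, and in heart muscle cells the pathway is known for limiting oxidative injury.

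Total counts ran from 12978548 to 13544337 per library, so 1 CPM on the TMM scale was 12.9 to 13.8 counts, and no library stood apart by depth or by the share of its 10 most abundant genes (7.94% to 8.40%). Of the 10 cardiomyocyte markers examined, 3 passed the expression filter. In controls Tnnt2 was at 349 ± 18.0 CPM, Pln at 23.4 ± 1.59 CPM and Myl2 at 0.54 ± 0.133 CPM (SD, n = 3). With the knockdown Tnnt2 and Myl2 were called higher (log2 fold change 0.24 and 1.23) and Pln lower (-0.68). Myh6, Nkx2-5, Tnni3 and Ryr2 were among those that did not pass the filter, so the labelled cell type was not borne out by the 10 markers as a set. Skeletal muscle markers were present and 7 of their 9 tested genes rose and 1, Myod1, fell. Their summed level was 1132 to 1149 CPM in controls and 1487 to 1594 CPM after knockdown. The 8 fibroblast markers summed to 43449 to 44792 CPM in controls and 40913 to 43733 CPM after knockdown, with 2 higher and 2 lower. The 5 leukocyte markers summed to 3.22 to 5.42 CPM and 6.74 to 9.02 CPM, with Ptprc at 0 counts in every library and 1 gene, Cd68, higher. The 4 hepatocyte markers summed to at most 1.89 CPM with Alb at 0, and the 5 endothelial markers to at most 4.47 CPM. The part of these markers in the results was not tested. In bulk RNA, fewer cells of a kind and less RNA per cell cannot be told apart.

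Most of the 40 genes differed between the groups, and more of them rose than fell. Of the 39 that passed the expression filter, 36 were called at an adjusted p under 0.05 (edgeR, adjusted by Benjamini-Hochberg over all tested genes); 26 of these rose with the knockdown and 10 fell. Among all 14216 tested genes, 61.7% passed, 30.8% higher and 30.9% lower. The counts by function given below are to be read beside these shares. The median log2 fold change of the 39 genes was 0.29, against 0.00 for all tested genes. Their sizes of change lay close to those of all tested genes. The median absolute log2 fold change was 0.37 for the 39 genes and 0.34 for all tested genes, and 3 of the 39 reached an absolute value of 1 with a call, against 9.80% of all. The 3 control and 3 knockdown values did not overlap for 37 of the 39 genes, 27 higher and 10 lower, against 65.6% of all tested genes (33.0% higher and 32.6% lower). Together the 40 genes took 0.745% to 0.759% of all counts with the control gapmer and 0.911% to 0.959% with the Tug1 gapmer.

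**Figure D1:**
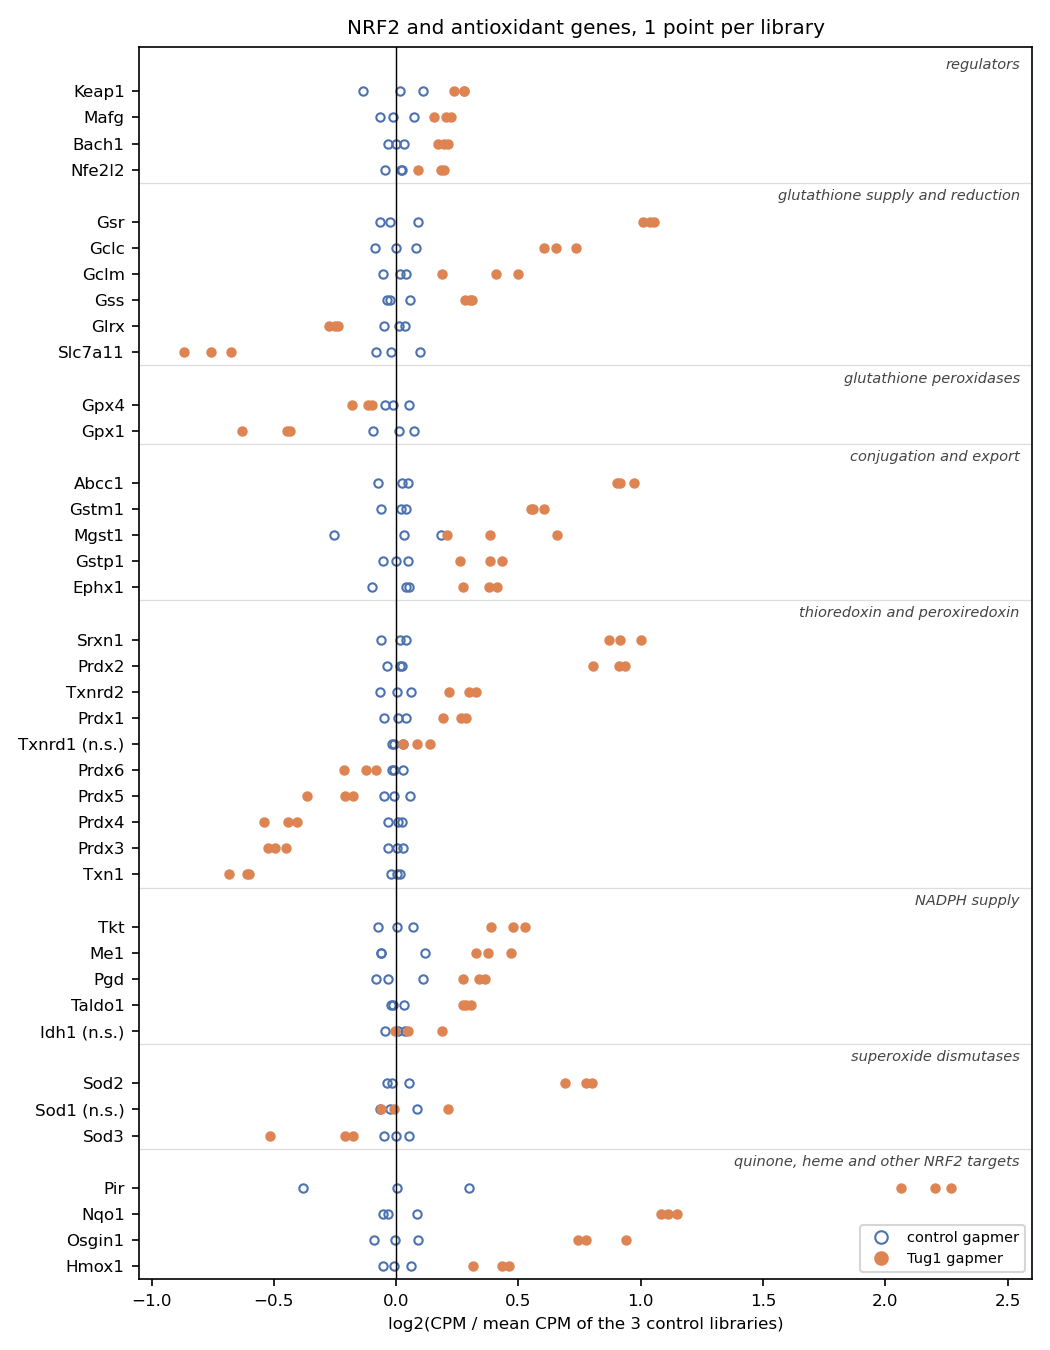
Level of each of the 39 tested genes in each library, as log2 of CPM over the mean CPM of the 3 control libraries (x axis), grouped by function (y axis). Open blue points are control libraries, filled orange points knockdown libraries, and (n.s.) marks the 3 genes that did not pass an adjusted p of 0.05. Pir stands farthest to the right, and Slc7a11 and Txn1 farthest to the left.

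All 4 regulators in the examined set rose, each by a small amount. Nfe2l2, which encodes NRF2, was at 265, 252 and 264 CPM in control replicates 1 to 3 and at 277, 295 and 298 CPM in knockdown replicates 1 to 3 (log2 fold change 0.16, SE 0.0460, adjusted p 0.00501). Keap1, its inhibitor, was at 39.3, 42.0 and 35.5 CPM in controls and 47.2, 47.3 and 45.9 CPM after knockdown (log2 fold change 0.26, SE 0.0693, adjusted p 0.00208). Factor and inhibitor thus moved the same way, and the log2 ratio of Nfe2l2 to Keap1 within a library overlapped between the groups (2.74 ± 0.155 in controls and 2.63 ± 0.0741 after knockdown, SD, n = 3). Bach1, the repressor that competes for antioxidant response elements, was at 92.1, 89.9 and 94.0 CPM in controls and 105, 107 and 104 CPM after knockdown (log2 fold change 0.19, SE 0.0513, adjusted p 0.00239). Mafg, a small MAF partner that both NRF2 and BACH1 use, was at 173, 184 and 167 CPM in controls and 195, 204 and 201 CPM after knockdown (log2 fold change 0.19, SE 0.0487, adjusted p 0.00140). Every knockdown library lay above every control library for each of the 4 genes. The log2 ratio of Mafg to Bach1 was 0.92 ± 0.101 in controls and 0.93 ± 0.0371 after knockdown (SD, n = 3), and its values overlapped. Outside these 4, and named after their values were seen, the small MAF genes Mafk and Maff fell. Mafk went from a mean of 110 to 86.9 CPM (log2 fold change -0.34, adjusted p 1.75e-05). Maff went from a mean of 101 to 74.9 CPM (-0.43, adjusted p 1.09e-05). Rbx1, of the ligase that KEAP1 serves, also fell (-0.47, adjusted p 6.83e-08). Gsk3b (0.89), Sqstm1 (0.64), Btrc (0.22) and Nfe2l1 (0.19), also named after their values were seen, were called higher. With an offset for gene length Btrc was at -0.06, without a call (adjusted p 0.383). In the related list that holds all of these, 42 genes were tested, with 22 called higher and 9 lower. Of all tested genes 30.8% were called higher and 30.9% lower.

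The quinone, heme and related NRF2 targets rose, 4 of 4, with a median log2 fold change of 0.97. Pir, which encodes the iron-binding nuclear protein pirin, moved farthest of all 40 genes. It was at 7.98, 6.12 and 9.79 CPM in control replicates 1 to 3 and at 38.3, 33.3 and 36.7 CPM in knockdown replicates 1 to 3, a 4.54-fold rise (log2 fold change 2.18, SE 0.114, adjusted p 2.63e-13), and 50 of all tested genes had a higher log2 fold change. NQO1 reduces quinones directly to hydroquinones. Its gene Nqo1 was at 256, 252 and 278 CPM in controls and 565, 579.6 and 555 CPM after knockdown (log2 fold change 1.11, SE 0.0462, adjusted p 5.01e-15). For either gene every knockdown value lay far above every control value, though the controls of Pir varied among themselves (coefficient of variation 23.1%, against 5.31% for Nqo1). Osgin1, which encodes an oxidative stress-induced growth inhibitor, was at 125, 133 and 118 CPM in controls and 215, 240.0 and 209 CPM after knockdown (log2 fold change 0.82, SE 0.0571, adjusted p 2.52e-11). Hmox1 encodes heme oxygenase 1, which opens the heme ring, and is a target that BACH1 represses. It was at 189, 199 and 184 CPM in controls and 258, 263 and 237 CPM after knockdown (log2 fold change 0.41, SE 0.0498, adjusted p 2.54e-07). Hmox1 rose less than Nqo1: the log2 ratio of Nqo1 to Hmox1 went from 0.46 ± 0.129 in controls to 1.17 ± 0.0509 after knockdown (SD, n = 3), without overlap between libraries.

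Because NRF2 binds antioxidant response elements, the promoters of the 40 genes were searched for the core of that element, written TGACNNNGC. The search covered both strands of the 250 bases before and 50 bases after each annotated start (RefSeq, build GRCr8). A promoter was matched for 36 genes, not for Gsr, Prdx6, Sod3 and Hmox1. The core was found for 12 of the 36 (33.3%), against 15.4% of the 10529 tested genes with a promoter, and for 8 of the 24 matched genes that rose and 2 of the 8 that fell. The variant TGAGNNNGC was found for 5 of the 36 (13.9%), against 20.7% of tested genes. Such matches are descriptions of the sequence, and Nqo1, a classic target, had neither form in this window. Below are the 4 genes with a core match and the largest called changes, in lower case with each match in capitals; a match on the opposite strand reads as its reverse complement.
Pir promoter, chrX:33851000-33851299, minus strand: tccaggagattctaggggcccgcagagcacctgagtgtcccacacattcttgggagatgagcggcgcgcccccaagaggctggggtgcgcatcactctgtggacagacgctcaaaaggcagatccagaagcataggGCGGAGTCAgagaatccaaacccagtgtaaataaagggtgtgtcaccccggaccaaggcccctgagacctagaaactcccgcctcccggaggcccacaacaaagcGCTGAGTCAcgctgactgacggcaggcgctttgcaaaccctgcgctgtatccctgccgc
Sod2 promoter, chr1:50050119-50050418, minus strand: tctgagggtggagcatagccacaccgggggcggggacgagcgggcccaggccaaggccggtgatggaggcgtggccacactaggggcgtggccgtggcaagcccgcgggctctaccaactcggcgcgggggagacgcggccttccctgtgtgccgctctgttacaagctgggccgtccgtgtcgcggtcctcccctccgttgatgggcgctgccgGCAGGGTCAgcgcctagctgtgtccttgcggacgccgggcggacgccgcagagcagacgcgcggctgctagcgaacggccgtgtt
Prdx4 promoter, chrX:43878483-43878782, plus strand: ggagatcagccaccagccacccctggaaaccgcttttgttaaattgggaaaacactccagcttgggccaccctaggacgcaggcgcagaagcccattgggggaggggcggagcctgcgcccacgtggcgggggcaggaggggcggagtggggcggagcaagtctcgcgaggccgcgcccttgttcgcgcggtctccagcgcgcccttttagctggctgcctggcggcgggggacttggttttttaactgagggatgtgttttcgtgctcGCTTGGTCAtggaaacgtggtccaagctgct
Me1 promoter, chr8:96540195-96540494, minus strand: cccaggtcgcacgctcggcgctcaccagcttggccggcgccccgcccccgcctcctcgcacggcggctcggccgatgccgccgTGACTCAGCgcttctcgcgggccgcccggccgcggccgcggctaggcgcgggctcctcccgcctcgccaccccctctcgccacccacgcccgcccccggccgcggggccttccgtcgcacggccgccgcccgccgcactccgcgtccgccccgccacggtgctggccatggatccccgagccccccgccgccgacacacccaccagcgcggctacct
Pir held 2 matches, beginning 114 and 9 bases before the start, both on the opposite strand. The match of Prdx4, a gene that fell, lay after the start. The exact form TGACTCAGC was shared by Pir, Me1, Gstp1, Ephx1 and Prdx1, all of which rose; this form was singled out after the matches were seen. It contains the AP-1 site, which reads TGAGTCA on the other strand, so the letters do not tell the motifs apart. Among tested genes with a promoter, 48 held this form, of which 19 were higher and 15 lower (39.6% and 31.2%), with a median log2 fold change of 0.02.

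Glutathione is made from cysteine, glutamate and glycine, and is kept reduced at the expense of NADPH. Of its 6 genes, the enzymes of synthesis and reduction rose and the cystine importer and glutaredoxin fell. Gsr, which encodes glutathione reductase, rose 2.05-fold: it was at 35.1, 34.1 and 38.0 CPM in control replicates 1 to 3 and at 74.2, 71.9 and 73.5 CPM in knockdown replicates 1 to 3 (log2 fold change 1.03, SE 0.0618, adjusted p 2.18e-12). The knockdown values lay close together and far above the controls. Gclc, the catalytic subunit of the rate-limiting glutamate-cysteine ligase, was at 57.7, 61.3 and 64.8 CPM in controls and 102, 96.5 and 93.1 CPM after knockdown (log2 fold change 0.67, SE 0.0589, adjusted p 1.41e-09). Gclm, the modifier subunit of the same ligase, was at 17.3, 18.1 and 18.4 CPM in controls and 25.4, 20.4 and 23.8 CPM after knockdown (log2 fold change 0.37, SE 0.0929, adjusted p 0.00142). The subunits rose unequally, with a log2 ratio of Gclm to Gclc of -1.77 ± 0.0378 in controls and -2.07 ± 0.147 after knockdown (SD, n = 3), without overlap. Gss, which encodes glutathione synthetase for the last step, was at 62.2, 58.4 and 58.8 CPM in controls and 72.6, 74.1 and 73.7 CPM after knockdown (log2 fold change 0.30, SE 0.0559, adjusted p 7.75e-05).

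Slc7a11 went the other way. It encodes the xCT subunit of the cystine-glutamate antiporter, which brings in the cysteine for glutathione, and is a target of both NRF2 and ATF4. It was at 30.7, 27.1 and 28.3 CPM in controls and 15.7, 18.0 and 17.0 CPM after knockdown, 58.9% of the control level (log2 fold change -0.76, SE 0.0865, adjusted p 7.15e-08), the largest fall among the 40 genes. Its membrane partner Slc3a2, named after its values were seen, also fell, from 430.4 ± 29.7 to 313 ± 18.3 CPM (SD, n = 3; log2 fold change -0.46, SE 0.0524, adjusted p 8.20e-08). Glrx, which encodes the cytosolic glutaredoxin that removes glutathione from protein thiols, was at 69.8, 73.0 and 74.2 CPM in controls and 60.9, 61.3 and 59.8 CPM after knockdown (log2 fold change -0.25, SE 0.0558, adjusted p 0.000421). With an offset for gene length and the replicate number as a block, its log2 fold change was -0.17 (adjusted p 0.0107).

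The glutathione peroxidases, selenoproteins that reduce peroxides with glutathione, did not rise. Gpx1, the abundant cytosolic form, was at 134, 119 and 128 CPM in control replicates 1 to 3 and at 93.4, 93.9 and 82.0 CPM in knockdown replicates 1 to 3 (log2 fold change -0.50, SE 0.0601, adjusted p 1.74e-07). Gpx4, which reduces lipid peroxides and guards against ferroptosis, was at 507, 531 and 496 CPM in controls and 472, 477 and 452 CPM after knockdown (log2 fold change -0.13, SE 0.0435, adjusted p 0.0123). For Gpx4 the groups were separated by a gap smaller than the range within either. Gpx3, a secreted form, had 6, 5 and 13 counts in controls and 4, 8 and 4 after knockdown and was not tested. Both tested genes are short, and the length offset took Gpx1 to -0.26 (adjusted p 0.000433) and turned Gpx4 to 0.05 (adjusted p 0.237). Gpx4 also lost its call with library totals in place of TMM (-0.08, adjusted p 0.120), without control replicate 2 (-0.11, adjusted p 0.0645) and without knockdown replicate 3 (-0.10, adjusted p 0.0615).

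All 5 genes of conjugation and export rose. Abcc1 encodes MRP1, a pump that exports glutathione conjugates. It was at 41.0, 37.7 and 40.3 CPM in controls and 74.2, 74.9 and 77.9 CPM after knockdown (log2 fold change 0.93, SE 0.0601, adjusted p 7.62e-12), and it is a long gene, at the 92.2th percentile of tested genes by genomic span. Gstm1, a mu-class glutathione transferase, was at 66.7, 70.7 and 71.6 CPM in controls and 106, 103 and 102 CPM after knockdown (log2 fold change 0.57, SE 0.0541, adjusted p 4.05e-09). Gstp1, the pi-class transferase, was at 955, 1025 and 991 CPM in controls and 1291, 1337 and 1188 CPM after knockdown (log2 fold change 0.36, SE 0.0461, adjusted p 4.42e-07). The transferases belong to families of close relatives, and how reads shared between relatives were counted is not given in the sources used here. Ephx1, the microsomal epoxide hydrolase, was at 94.4, 105 and 104 CPM in controls and 135, 132 and 122 CPM after knockdown (log2 fold change 0.36, SE 0.0561, adjusted p 8.12e-06). Mgst1, a membrane-bound glutathione transferase, was at 11.7, 8.67 and 10.6 CPM in controls and 16.3, 13.5 and 11.9 CPM after knockdown (log2 fold change 0.43, SE 0.131, adjusted p 0.00666). The highest control and the lowest knockdown value of Mgst1 nearly touched, and its call was lost without control replicate 2 (0.32, adjusted p 0.0573) and without knockdown replicate 1 (0.30, adjusted p 0.0603).

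The thioredoxin and peroxiredoxin genes split, with 4 higher, 5 lower and 1 past neither way. Peroxiredoxins reduce hydrogen peroxide through a cysteine, which thioredoxin restores in most of them. Thioredoxin reductase restores thioredoxin from NADPH, and sulfiredoxin rescues overoxidised peroxiredoxins. Srxn1, the sulfiredoxin gene and a classic NRF2 target, was at 88.4, 94.9 and 93.3 CPM in control replicates 1 to 3 and at 169, 184 and 174 CPM in knockdown replicates 1 to 3 (log2 fold change 0.93, SE 0.0527, adjusted p 9.17e-13). Txn1, which encodes cytosolic thioredoxin, was at 252, 246 and 250.3 CPM in controls and 164, 164 and 155 CPM after knockdown, 64.6% of the control level (log2 fold change -0.63, SE 0.0460, adjusted p 5.67e-11). Sulfiredoxin and thioredoxin transcripts thus moved in opposite directions, each without overlap between the groups. Txnrd1, the cytosolic reductase and another classic target, was at 333, 343 and 335 CPM in controls and 344, 371 and 358 CPM after knockdown. The difference did not pass (log2 fold change 0.08, SE 0.0442, adjusted p 0.100, 95% interval -0.01 to 0.18), although the libraries stood narrowly apart. It was called higher with library totals (0.14, adjusted p 0.00851) and without knockdown replicate 1 (0.11, adjusted p 0.0497), and was at -0.08, without a call, with the length offset. Txnrd2, the mitochondrial reductase, was at 19.3, 18.5 and 17.7 CPM in controls and 21.5, 22.7 and 23.2 CPM after knockdown (log2 fold change 0.28, SE 0.0854, adjusted p 0.00667). With the length offset Txnrd2 was at 0.19 and just missed the threshold (adjusted p 0.0500048). The log2 ratio of Txnrd1 to Txnrd2 went from 4.19 ± 0.0690 in controls to 3.99 ± 0.0415 after knockdown (SD, n = 3), without overlap.

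Within the peroxiredoxins, Prdx1 and Prdx2 rose and the other 4 fell. Prdx2 was at 233, 244 and 242 CPM in controls and 450.2, 458 and 418 CPM after knockdown (log2 fold change 0.88, SE 0.0462, adjusted p 2.48e-13). Prdx1 was at 706, 678 and 722 CPM in controls and 844, 856 and 802 CPM after knockdown (log2 fold change 0.25, SE 0.0428, adjusted p 2.60e-05). The rise of Prdx2 was the larger, and the log2 ratio of Prdx1 to Prdx2 went from 1.55 ± 0.0641 in controls to 0.92 ± 0.0198 after knockdown (SD, n = 3), without overlap. Prdx3, the peroxiredoxin of the mitochondrial matrix, was at 193, 190.3 and 186 CPM in controls and 132, 139 and 135 CPM after knockdown (log2 fold change -0.49, SE 0.0476, adjusted p 6.41e-09). Prdx4, the form of the endoplasmic reticulum, was at 97.7, 94.7 and 98.7 CPM in controls and 66.7, 73.3 and 71.5 CPM after knockdown (log2 fold change -0.46, SE 0.0554, adjusted p 1.74e-07). These falls were of like size and kept their calls in every alternative run. Prdx5, found in mitochondria, peroxisomes and cytosol, was at 481, 503 and 468 CPM in controls and 428, 418 and 376 CPM after knockdown (log2 fold change -0.25, SE 0.0491, adjusted p 0.000133). Prdx6, the 1-Cys form, was at 189.8, 191 and 196 CPM in controls and 166, 182 and 176 CPM after knockdown (log2 fold change -0.14, SE 0.0483, adjusted p 0.0164). The last 2 were less certain: with the length offset Prdx5 was at -0.08 (adjusted p 0.0895) and Prdx6 at -0.06 (adjusted p 0.275). Prdx6 also missed the threshold with library totals (-0.09, adjusted p 0.127), without control replicate 3 (-0.12, adjusted p 0.0548) and without knockdown replicate 1 (-0.10, adjusted p 0.112).

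**Figure D2:**
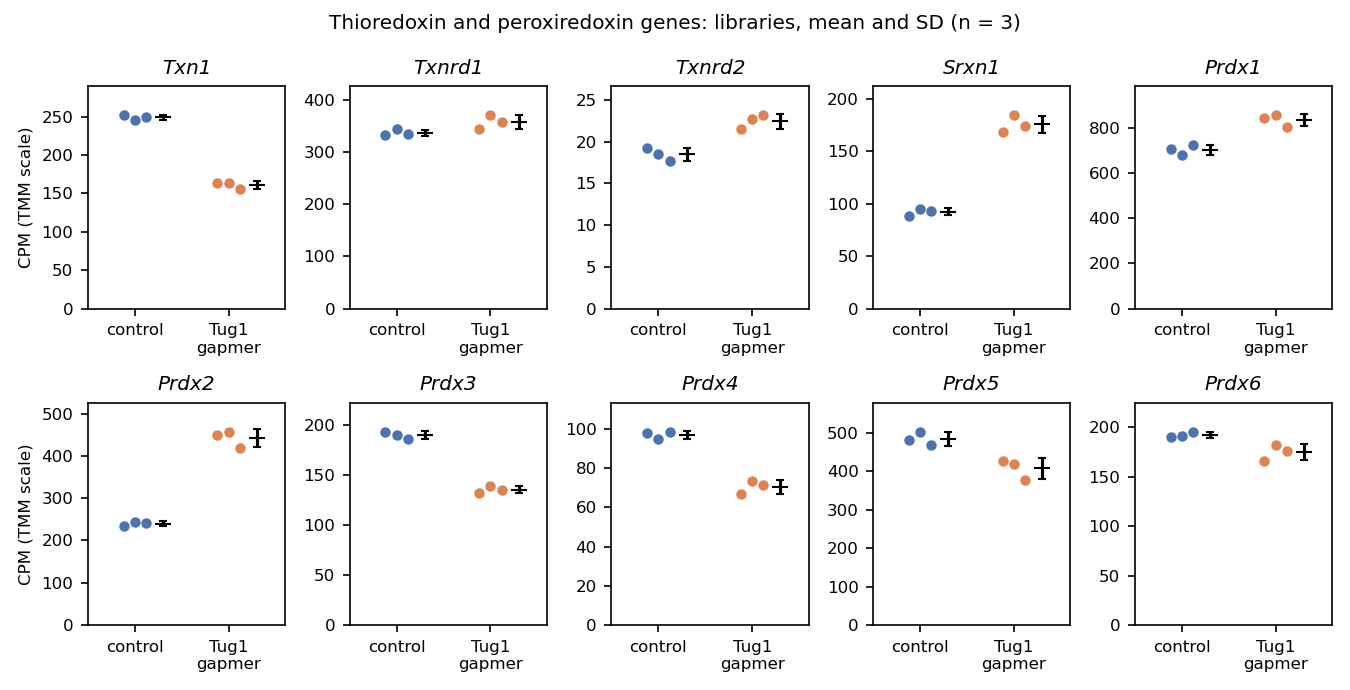
CPM on the TMM scale (y axis, from 0) of the 10 thioredoxin and peroxiredoxin genes in the 3 control libraries (blue) and the 3 knockdown libraries (orange); the black bar beside each group is the mean with its SD (n = 3). Srxn1 and Prdx2 lie clearly higher after knockdown, Txn1, Prdx3 and Prdx4 clearly lower, and Txnrd1 changed little.

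NADPH feeds both the glutathione and the thioredoxin reductases. Of the 5 genes for its supply, 4 rose and none fell. Tkt, the transketolase of the pentose phosphate pathway, was at 378, 417 and 399 CPM in control replicates 1 to 3 and at 554, 573 and 521 CPM in knockdown replicates 1 to 3 (log2 fold change 0.47, SE 0.0475, adjusted p 1.38e-08). Pgd, whose product 6-phosphogluconate dehydrogenase makes NADPH in that pathway, was at 417, 432 and 476 CPM in controls and 568, 558 and 534 CPM after knockdown (log2 fold change 0.33, SE 0.0485, adjusted p 3.90e-06). Taldo1, the transaldolase, was at 338, 340.0 and 351 CPM in controls and 419, 425 and 414 CPM after knockdown (log2 fold change 0.29, SE 0.0421, adjusted p 2.86e-06). Me1, the cytosolic malic enzyme, was at 166, 166 and 188 CPM in controls and 239, 217 and 225 CPM after knockdown (log2 fold change 0.39, SE 0.0540, adjusted p 1.37e-06). Me1 is a long gene, and its log2 fold change was 0.18 with the length offset (adjusted p 0.00380). Idh1, the cytosolic isocitrate dehydrogenase, was at 210.2, 203 and 215 CPM in controls and 238, 209 and 216 CPM after knockdown. Its groups overlapped and the difference did not pass (log2 fold change 0.08, SE 0.0513, adjusted p 0.187, 95% interval -0.03 to 0.19); it passed with library totals (0.13, adjusted p 0.0303). Idh1 was at 0.02 without knockdown replicate 1 (adjusted p 0.723) and at 0.12 without knockdown replicate 2 (adjusted p 0.0592).

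The 3 superoxide dismutases, which turn superoxide into hydrogen peroxide, each went their own way. Sod2, the manganese enzyme of the mitochondrial matrix, was at 83.0, 81.8 and 86.9 CPM in control replicates 1 to 3 and at 144, 146 and 135 CPM in knockdown replicates 1 to 3 (log2 fold change 0.76, SE 0.0529, adjusted p 2.81e-11). Sod1, the cytosolic copper-zinc enzyme, was at 100.3, 97.4 and 108 CPM in controls and 118, 101 and 97.6 CPM after knockdown. Only knockdown replicate 1 lay above the control libraries, and the difference did not pass (log2 fold change 0.05, SE 0.0645, adjusted p 0.491, 95% interval -0.08 to 0.19). Without that library Sod1 was at -0.03 (adjusted p 0.674), and with the length offset it was called higher at 0.18 (adjusted p 0.0179). The log2 ratio of Sod2 to Sod1 went from -0.28 ± 0.0324 in controls to 0.43 ± 0.129 after knockdown (SD, n = 3), without overlap. Sod3, the secreted form, was at 48.2, 44.9 and 46.4 CPM in controls and 40.2, 41.2 and 32.5 CPM after knockdown (log2 fold change -0.29, SE 0.0777, adjusted p 0.00249). Knockdown replicate 3 was its lowest library. Without it Sod3 was at -0.19 (adjusted p 0.0312), and with the length offset it was at -0.17 (adjusted p 0.0537).

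The length offset mattered here because log2 fold changes followed gene length across the whole table. The median was -0.17 in the 2618 shortest tested genes by genomic span and 0.26 in the 2618 longest. The genes that fell stood at a median of the 27.2th percentile of span, and those that rose at the 50.6th. With the offset, 32 of the 39 genes were called, 31 of them among the 36 and in the same direction. Slc7a11, a long gene, fell further with it (-1.01), and Pir (1.97), Nqo1 (1.16), Gsr (0.96) and Abcc1 (0.68) remained called higher.

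**Figure D3:**
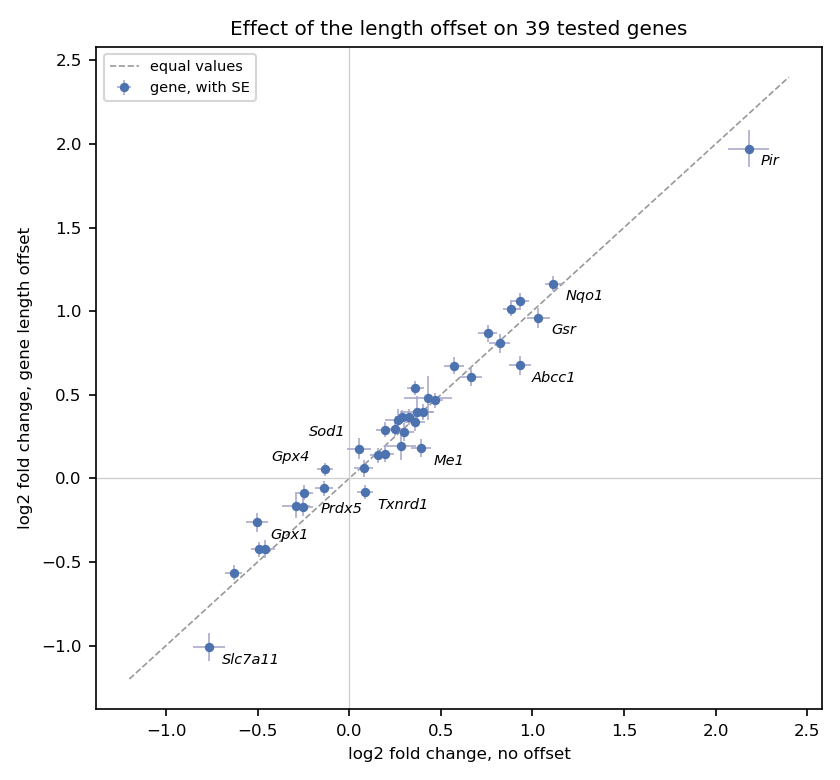
Log2 fold change of the 39 tested genes without (x axis) and with (y axis) an offset for genomic span; bars are standard errors, and the dashed line marks equal values. The short genes Gpx1 and Gpx4 lie above the line, and the long genes Slc7a11, Abcc1, Me1 and Txnrd1 below it.

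Related genes were read from lists outside the 40. Of 48 other genes of the NRF2 pathway, 42 were tested and 31 called, 22 higher and 9 lower, with a median log2 fold change of 0.20; of all tested genes 61.7% were called, 30.8% higher and 30.9% lower. By the smallest p they were led by Gsta5 (2.44 ± 0.343 to 41.7 ± 3.82 CPM, SD, n = 3; log2 fold change 4.09, SE 0.124), Akr1b8 (285 ± 17.7 to 837 ± 55.1 CPM, SD, n = 3; 1.56, SE 0.0527) and Abcc5 (93.6 ± 2.80 to 205 ± 5.94 CPM, SD, n = 3; 1.13, SE 0.0499). Gsta5 is an alpha-class glutathione transferase with close relatives, Akr1b8 an aldo-keto reductase and Abcc5 an export pump. The farthest falls of this list, named after their values were seen, were those of Cbr3 and Trim16. Cbr3 went from 31.2 ± 3.89 to 8.95 ± 0.192 CPM (SD, n = 3, log2 fold change -1.80, SE 0.104). Trim16 went from 34.5 ± 1.78 to 15.8 ± 1.37 CPM (SD, n = 3, log2 fold change -1.12, SE 0.0853). Of 45 other thioredoxin and glutathione enzymes, 42 were tested and 24 called, 11 higher and 13 lower, with a median of 0.04, no larger a share than the 61.7% of all tested genes. That list was led by Cat, the catalase gene (1.31, SE 0.0474), Glrx5, a mitochondrial glutaredoxin for iron-sulfur cluster assembly (19.5 ± 0.815 to 47.0 ± 5.77 CPM, SD, n = 3; 1.27, SE 0.0869), and Txnip, a thioredoxin-binding inhibitor (208 ± 11.7 to 139.9 ± 9.80 CPM, SD, n = 3; -0.58, SE 0.0556). Txnip thus fell, as Txn1 did.

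ATF4, a transcription factor of the integrated stress response, is 1 of the known regulators of Slc7a11, so its targets were read beside it. Whether ATF4 had a part in the fall of Slc7a11 was not tested. All 15 listed genes, Slc7a11 included, were tested and 14 called, 3 higher and 11 lower, with a median log2 fold change of -0.37, where 61.7% of all tested genes were called and 30.9% were lower. Atf4 itself fell from 515 ± 7.61 to 435 ± 11.2 CPM (SD, n = 3; log2 fold change -0.24, SE 0.0419, adjusted p 2.82e-05), and its call was lost with the length offset (-0.04, adjusted p 0.440), which left 8 of the 15 listed genes lower and 4 higher. Those that fell besides Slc7a11 were Atf3 (-1.16), Stc2 (-1.12), Asns (-0.76), Trib3 (-0.73), Psat1 (-0.44), Chac1 (-0.40), Ddit3 (-0.37), Vldlr (-0.37) and Mthfd2 (-0.16). Chac1 encodes an enzyme that degrades glutathione, and Asns makes asparagine. With the length offset Chac1 was at -0.22 (adjusted p 0.0740) and Ddit3 at -0.23 (adjusted p 0.0135), and without knockdown replicate 1 Chac1 was at -0.24 (adjusted p 0.0214). The call of Mthfd2 was lost with the length offset (adjusted p 0.231), with library totals (0.151), with DESeq2's Wald test (0.0521) and without control replicate 1 (0.231) or 3 (0.0601) or knockdown replicate 1 (0.162) or 3 (0.0745). The 3 that rose were Phgdh (1.07), which starts serine synthesis, Atf5 (0.66) and Sesn2 (0.20).

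**Figure D4:**
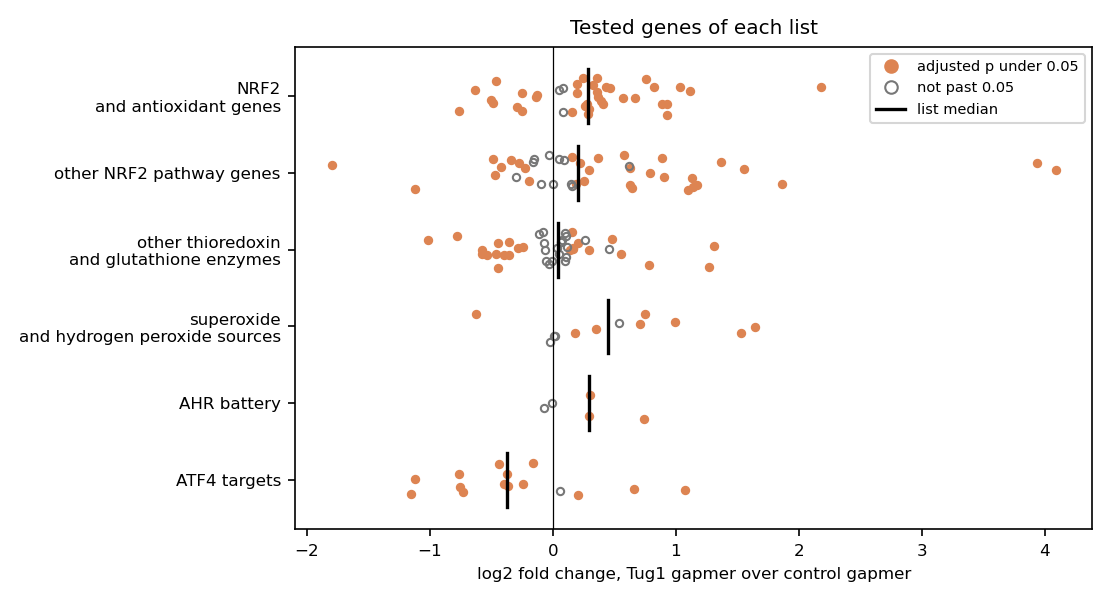
Log2 fold change (x axis, Tug1 gapmer over control gapmer) of every tested gene of the 39 and of 5 related lists (y axis, points spread vertically at random). Orange points passed an adjusted p of 0.05, open grey points did not, and the black bar is the list median, which lies at -0.37 for the ATF4 targets and at 0.29 for the NRF2 and antioxidant genes.

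The median coefficient of variation between replicates was 3.70% in controls and 4.57% after knockdown for the 39 genes, against 6.72% and 6.77% for all tested genes with counts in both groups. Single genes spread more, among them Pir (23.1% in controls) and Mgst1 (15.0% in controls and 16.0% after knockdown). In the GRCr8 annotation 12 of the 40 overlapped another gene, and whether counting used strand is not given in the sources used here. The values of these 12, Txnrd2 among them, are uncertain to the extent that reads were shared. The genes overlapping Pir held at most 1 count in any library.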

How the data were processed

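Poly-A RNA sequencing was made in 6 libraries, 3 per group, from 500 ng of RNA with an integrity number of at least 9, per the labels' protocols. Per gene and library the authors deposited unscaled whole-number counts, as the values show. FastQC 0.11.7, fastp 0.14.1 and STAR 2.5 are named in the submitters' processing notes; the counting tool, genome build, annotation and use of strand are not given in the sources used here. Unnamed entries numbered 0.

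The test across all genes used edgeR 4.0.16 (R 4.3.3): expression filter (minimum count 10, total 15), TMM scaling, quasi-likelihood test (two-sided, prior count 0.125) and Benjamini-Hochberg adjustment over the 14216 tested genes, with a call at an adjusted p under 0.05. Adjusted p-values in the text come from this test unless another tool is named. Standard errors are the log2 fold change over the root of the F statistic, and 95% intervals use the test's degrees of freedom. CPM values are on the TMM scale. A positive log2 fold change is a higher level with the Tug1 gapmer. Ratios of 2 genes within a library were formed for 7 pairs and not tested. Promoters came from RefSeq (GRCr8), as did genomic spans, available for 13090 tested genes; the length offset removes from each library a lowess trend (span 0.3) on log2 span. Limits of detection cover counting error only (3 counts, 0.217 to 0.232 CPM).

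The 40 genes, lists, named pairs, tests and alternatives were chosen with earlier results of these data known. All 40 genes and Tug1 were named; of each related list the 3 called genes with the smallest p, and every called gene of lists under 20 names. A few genes that these rules or the overlaps would name are not reported here by name, and stay in the counts. Alternatives were other scalings, DESeq2 1.42.0, limma-voom (limma 3.58.1), other filters, an adjusted p under 0.01, a replicate block, each library left out, and the length offset. The scripts were tested on simulated data. In the simulation far fewer genes changed than were called here, and no trend with gene length was put in. It therefore does not test the scaling or the length offset under the conditions of these data.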

Additional observations from a re-analysis of the deposited data

How the results depend on the processing

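Call and direction held in all 15 alternatives for 30 of the 39 tested genes. Over 585 combinations of gene and alternative, 560 gave the reported call and direction, 15 lost it, 5 gained one and 5 turned direction. The count of called genes among the 39 ran from 32, with the length offset, to 36 (34 to 36 in the fits without a library), and was 36 with DESeq2's Wald test and with limma-voom. Direction turned for Gpx4 with the length offset (0.0543, also with the replicate block), for Txnrd1 with it (-0.0807, and -0.0809 with the block) and for Sod1 without knockdown replicate 1 (-0.0328, the lowest of a range up to 0.1097 over the fits without a library). The log2 ratio of Mafg to Bach1, at 0.00296 between group means, was negative in 4 of the 6 fits without a library (-0.0440, -0.0124, -0.00355 and -0.00229) and reached 0.0564 without control replicate 2. Apart from the length offset, which acts through gene length by construction, what caused these changes was not tested. Tug1 ran from -2.22 to -2.08 (-2.22 to -2.15 without a library). The count over all genes ran from 7353, at an adjusted p under 0.01, to 8987, with 26059 genes tested under no filter beyond 1 count. At an adjusted p under 0.05 it was 7876 with DESeq2's Wald test and 8128 to 8410 in the fits without a library.

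Deviations of same-numbered libraries from their group means correlated at -0.00792, 0.0408 and 0.0368 across genes, so no pairing was seen. Because such deviations also hold counting error, these values cannot show whether same-numbered libraries shared a culture or batch. With the replicate number as a block, 36 of the 39 genes were called, the same 36 as without it. The fits without a library rest on 2 against 3. Depth limits Gpx3, which was under the filter, and genes near 1 CPM.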

Other observations

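The enzymes that produce superoxide and hydrogen peroxide were listed beside those that remove them. Of 16 listed genes, 12 were tested and 8 called, 7 higher and 1 lower, with a median log2 fold change of 0.45; the called share was near the 61.7% of all tested genes. Maoa, the mitochondrial monoamine oxidase A, went from 41.6 ± 0.779 to 82.6 ± 3.42 CPM (SD, n = 3; log2 fold change 0.99). Duox2, a dual oxidase, went from 59.6 ± 5.76 to 97.2 ± 2.42 CPM (SD, n = 3; 0.71). Nox4, the NADPH oxidase that is active without cytosolic activators, rose by 0.75 on the log2 scale (0.45 with the length offset). Nox1, the only gene of the list called lower, was at -0.62, and its call was lost without knockdown replicate 1 (-0.46, adjusted p 0.0662). Poldip2 (0.35), Xdh (0.18) and the oxidase subunit Ncf1 (1.65) were also higher, the last at 1.31 ± 0.453 CPM after knockdown (SD, n = 3), and the call of Xdh was lost with the length offset (0.06, adjusted p 0.282). Cyba, the shared p22phox subunit, did not pass (35.4 ± 1.73 CPM with the control gapmer, 35.7 ± 3.03 CPM with the Tug1 gapmer, SD, n = 3).

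Nqo1 is also a target of the aryl hydrocarbon receptor. Of 7 genes of that receptor's battery, 5 were tested and 3 called, a share near the 61.7% of all tested genes. The 3, all higher, were its repressor Ahrr (0.74), its partner Arnt (0.30, and 0.18 with the length offset) and Tiparp (0.29). Its target Cyp1b1 did not pass (131 ± 9.96 CPM with the control gapmer, 130.4 ± 13.3 CPM with the Tug1 gapmer, SD, n = 3), and Cyp1a1 was under the expression filter. Its counts were 0, 1 and 3 with the control gapmer against 5, 14 and 2 with the Tug1 gapmer, so the groups overlapped. With no filter beyond 1 count, 7 genes of the battery were tested and 4 called, Cyp1a1 being the one added (adjusted p 0.0185).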
